A study of Homo sapiens with 20 samples.

Results

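The genes described here are the 48 of 20314 whose transcripts stood higher in U2-OS cells 7 days after irradiation and lower in non-irradiated cells with NFKBIA knockdown, both relative to untreated cells. U2-OS is a human osteosarcoma line. RNA was sequenced from 4 groups of 5 replicates, grown alike in medium with serum. They were untreated cells, cells harvested 1.5 h (90 minutes in the labels) or 7 days after 20 Gy of ionizing radiation (IR), and cells that carried an NFKBIA shRNA and were not irradiated. For shRNA lines the methods give lentiviral vectors, puromycin selection of clones and doxycycline, and the labels of the untreated cells name none of these. The study used scrambled shRNAs as controls for such lines, and no label of the 20 libraries names one. From the labels, effects of the knockdown cannot be told apart from those of the vector, the selection or doxycycline.

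Levels are counts per 1000000 counts of the library (CPM). Members were chosen from these values alone. The log2 of a group's median CPM plus 0.5 was compared with that of the untreated group. A member had a difference of at least 0.6 at 7 days, of -0.6 or lower with the knockdown, and above -0.6 at 1.5 h. The last bound removed no gene. The members made up 2.41% of the 1988 genes past the threshold at 7 days and 10.1% of the 476 genes past it downward with the knockdown. By the same measure 245 genes were higher in both conditions, and 1695 were higher at 7 days and within the threshold in the knockdown. Because every group entered the choice, the members' differences between groups are a description. Counts of members called by a test stand beside the share of all genes called and are no evidence about the list.

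After severe DNA damage many cells stop dividing for good and become senescent, a state in which they release cytokines, proteases, protease inhibitors and matrix proteins, known as the senescence-associated secretory phenotype (SASP). NF-κB transcription factors drive much of its inflammatory part. NFKBIA encodes IκBα, which binds NF-κB dimers and keeps them out of the nucleus, and NFKBIA is itself an NF-κB target. These are bulk libraries, in which more cells making an RNA and more RNA per cell cannot be told apart.

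The targeted gene was checked first. NFKBIA stood at 28.2, 23.5, 27.2, 34.3 and 39.1 CPM in the untreated libraries and at 13.2, 11.4, 12.4, 12.2 and 12.7 CPM in the knockdown libraries, without overlap. Its log2 fold change in the knockdown was -1.36 (SE 0.11; adjusted p = 4.87e-09, edgeR). The study describes the replicates of the untreated and irradiated groups as biological. For the knockdown the sources used here do not say whether they were separate cultures. The fit shared 1 estimate of spread per gene over the 4 groups, so its p-values may rest in part on technical spread. The groups' spreads were unequal. Over the members the standard deviation had a median of 18.9% of the mean in untreated cells, 6.49% at 7 days and 12.3% with the knockdown. At 1.5 h NFKBIA stood between 76.0 and 87.9 CPM, above every untreated library, and at 7 days between 28.7 and 32.8 CPM, within their range.

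The libraries held 22535659 to 40390961 counts, so that 1 count was worth 0.0248 to 0.0444 CPM. Osteoblast and mesenchymal markers summed to 6090 to 7362 CPM in untreated libraries, 5865 to 6098 at 1.5 h, 5087 to 5562 at 7 days and 5175 to 5474 with the knockdown. Blood and endothelial markers summed to 21.8 to 33.2, 22.4 to 25.8, 36.9 to 44.2 and 24.2 to 27.1 CPM in the same order. The former were thus lower at 7 days and with the knockdown, and the latter higher at 7 days, than in any untreated library. Single genes carried much of these sums, CD68 going from a median of 1.94 to 23.4 CPM at 7 days while CD34 went from 11.6 to 4.35, and COL1A1 from 1875 to 613 CPM with the knockdown while SPARC and VIM stayed near their untreated levels. At 7 days SPARC went from 2092 to 1248 CPM and COL1A1 to 1516 CPM. VIM stayed near its untreated level there, and SPP1 rose from 10.4 to 72.5 CPM. The part of these shifts in the members' values was not tested. Of the former, 4 of 15 had a median under 0.1 CPM, the osteoblast factor SP7 among them, while VIM and RUNX2 were plentiful. Of the latter, 6 of 14 had a median under 0.1 CPM, and HBB was at 0. The sequencing lane was nearly the same as the group. No lane held untreated libraries together with those at 7 days or with the knockdown, so these comparisons cannot be told apart from the lane by design. Untreated replicate 5 stood apart. It was the shallowest library and the only untreated one outside lane 2, and it was the highest of the 5 untreated libraries for 20 members and the lowest for 11. Set against this replicate alone, 29 of the 48 members, which had been chosen partly on it, passed both thresholds. Without it the rule found 40 genes, 38 of them among the members. With the lane as a factor in the fit, lanes joined the untreated group to the others only through this replicate, and the knockdown only through its replicate 1. In that fit 34 members were called higher at 7 days, where 21.8% of genes tested were, and 35 lower with the knockdown, where 14.0% were, and the 7 days values of ALPL, C6orf132, INHBA and NR1D1 turned to -0.11, -0.33, -0.03 and -0.47. Lane 5 held 3 libraries at 7 days and knockdown replicate 1, and that replicate lay below those 3 libraries in all 48 members, which the rule had chosen for this order of the groups.

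**Figure D1:**
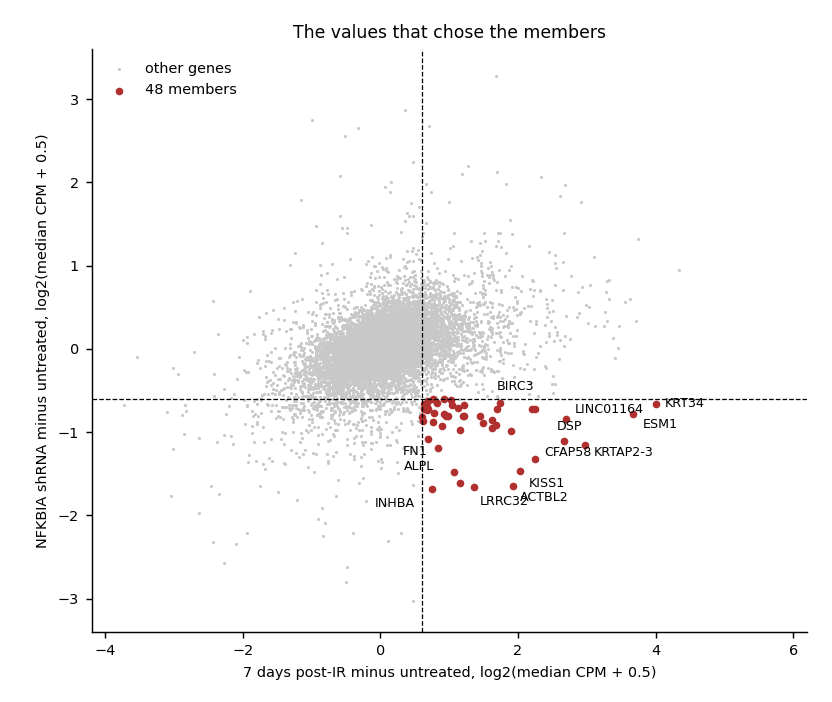
Each point is a gene with an untreated median of at least 0.5 CPM (13973 genes, 1 of them beyond the axes). The horizontal axis gives the difference between 7 days and untreated and the vertical axis that between the NFKBIA knockdown and untreated, both in log2(median CPM + 0.5). Dashed lines mark 0.6 and -0.6, and the 48 members in red fill the lower right corner, from KRT34 at 4.0 on the horizontal axis to INHBA at -1.68 on the vertical one.

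The members' differences at 7 days ran from 0.61 to 4.0 (median 1.14), and 9 of them were 2 or more. With the knockdown they ran from -0.60 to -1.68 (median -0.80), and 11 were -1 or lower. Of the 48, 8 had at least 1 at 7 days together with -1 or lower in the knockdown. These were LRRC32, ACTBL2, TENM4, ALPL, KISS1, CFAP58, KRTAP2-3 and DSP. The ratio of the 7 days median to the knockdown median ran from 2.55 for NOCT to 40.8 for LINC01164 (median 4.49), and 11 members reached 10 or more.

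In 44 members all libraries at 7 days lay above all untreated ones, against 27.3% of the 14992 genes tested, and in 43 all knockdown libraries lay below them, against 8.93%. Both held in 39 members, and the share of all genes tested in which both held was not computed. By edgeR's quasi-likelihood test, with a log2 fold change over 0.5 in size and an adjusted p under 0.05, 47 members were called higher at 7 days, where 16.7% of the genes tested were, and 48 were called lower with the knockdown, where 7.53% were. These shares are what the rule chose for. Genes called both higher at 7 days and lower with the knockdown were 144, of which 47 were members. Over all genes tested, 777 were called higher and 1129 lower with the knockdown, and 971 and 924 when counts were scaled by library size alone. NR1D1 was the member not called at 7 days, and its untreated replicate 5 held 59.5 CPM against 43.6 to 45.4 CPM at 7 days. Just inside the threshold at 7 days lay EVA1C at 0.61, ALDH2 at 0.61 and NOCT at 0.63, and just outside lay TRHDE at 0.58, ENSG00000257767 at 0.58 and FLRT3 at 0.57. On the knockdown side AFF3 at -0.60, PLOD2 at -0.61 and NRXN3 at -0.62 were the last inside, while PCDH7 at -0.60, SNED1 at -0.59 and EDN1 at -0.59 were the first outside. A threshold of 0.5 took in 77 genes and one of 0.8 took in 22.

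**Figure D2:**
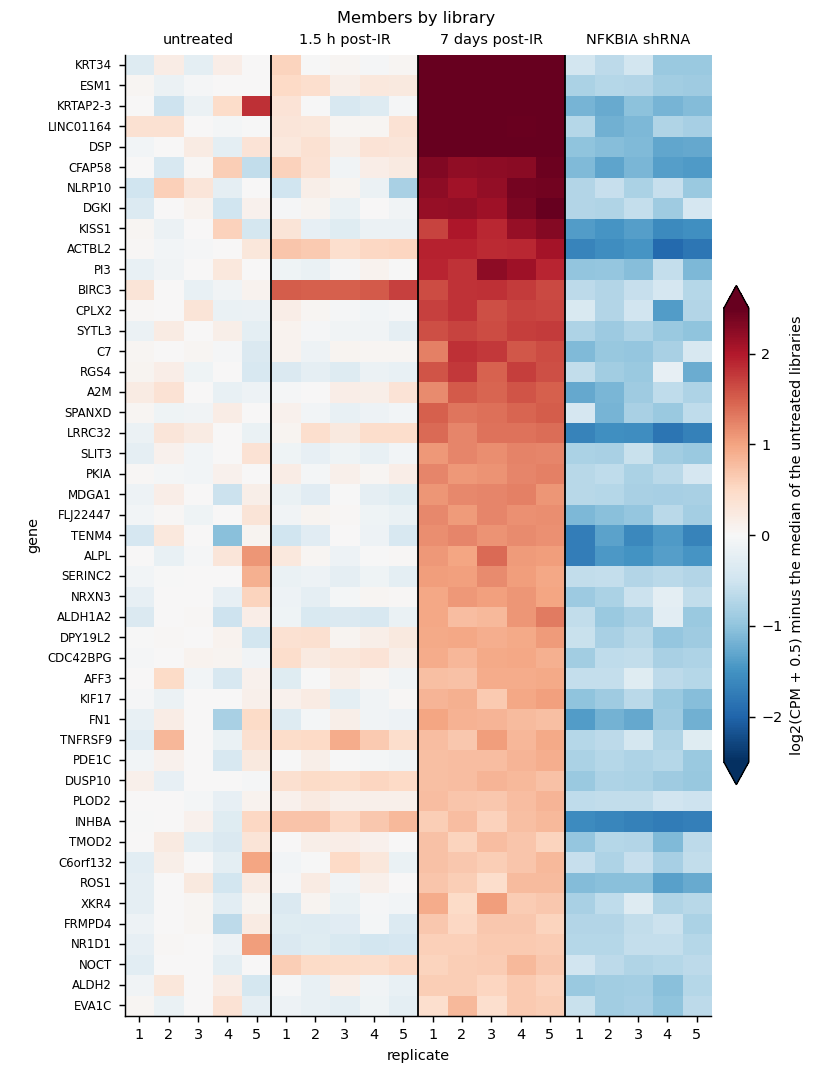
Rows are 47 members in order of their difference at 7 days, and columns are the 20 libraries by group and replicate. Colour is log2(CPM + 0.5) minus the median of the untreated libraries. The 7 days block is red and the knockdown block blue throughout, the 1.5 h block is pale except in rows such as BIRC3 and INHBA, and untreated replicate 5 departs from its group in rows such as KRTAP2-3, ALPL, SERINC2 and NR1D1.

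Sequence upstream of the start site was available for 38 members in RefSeq (GRCh38.p14). It was searched on both strands, from 250 bases before the start, for motifs of factors known from damage, matrix and NF-κB responses. The stretches shown are those with kappa B matches in the members of the NF-κB pathway, and those with TATAAA in the members with a difference of 2 or more at 7 days. All are printed 5′ to 3′ on the gene's strand up to the base before the start. BIRC3 (chr11:102317274-102317483, plus strand) held 2 kappa B matches, in capitals. TNFRSF9 (chr1:7940840-7940929, minus strand) held overlapping kappa B matches on both strands and, downstream of them, the AP-1 motif, all in capitals. KRT34 (chr17:41382307-41382366), ESM1 (chr5:54985594-54985653), KRTAP2-3 (chr17:41060115-41060174) and KISS1 (chr1:204196492-204196551), all on the minus strand, held TATAAA, in capitals, beginning 28 to 32 bases before the start.
BIRC3: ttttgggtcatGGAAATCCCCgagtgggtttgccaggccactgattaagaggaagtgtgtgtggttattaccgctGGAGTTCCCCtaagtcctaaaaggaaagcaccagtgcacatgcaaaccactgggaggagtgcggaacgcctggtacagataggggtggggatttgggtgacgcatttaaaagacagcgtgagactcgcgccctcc
TNFRSF9: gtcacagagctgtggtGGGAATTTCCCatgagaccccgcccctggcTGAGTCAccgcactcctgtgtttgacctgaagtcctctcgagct
KRT34: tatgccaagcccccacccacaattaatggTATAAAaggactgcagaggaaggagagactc
ESM1: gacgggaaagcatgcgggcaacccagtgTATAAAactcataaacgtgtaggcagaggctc
KRTAP2-3: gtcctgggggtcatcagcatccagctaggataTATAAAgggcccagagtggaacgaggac
KISS1: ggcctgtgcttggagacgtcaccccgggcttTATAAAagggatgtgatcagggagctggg

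Kappa B matches stood in 3 of the 38 members (7.89%), KIF17 being the other, and in 11.7% of the 11742 tested genes with a sequence. The AP-1 motif (TGAGTCA or TGACTCA) stood in 1 member and in 2.83% of those genes. GGAATG, bound by TEAD factors, stood in 4 members (10.5%) and in 9.78% of all, CACGTG in 2 members and 8.71% of all. The CArG box of SRF stood in 0 members and 118 of the genes, and the palindrome bound by SMAD proteins in 0 members and 19 of the genes. GGGCGG, bound by SP1, stood in 14 members (36.8%) and in 65.1% of all. TATAAA, added to the search after the members' values had been seen, stood in 7 members (18.4%) and in 5.88% of all. A CArG box can contain TATAAA, and a kappa B match can contain the TEAD motif on the other strand. A match in so short a window is a run of letters and not a measured binding site.

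The TGF-β family was represented by a ligand and an anchor of a latent ligand. INHBA, which encodes the βA chain of activin A, had the lowest knockdown difference of the list by the rule's measure, at -1.68. In the fit it had -1.83, and LRRC32, LINC01164, KRTAP2-3, ACTBL2 and ALPL lay lower, at -2.91 to -1.96. INHBA stood at 89.9, 90.0, 96.7, 73.2 and 129 CPM in untreated cells and at 138, 154, 135, 152 and 159 CPM at 7 days. In the knockdown it stood at 30.1, 28.8, 27.7, 26.6 and 27.3 CPM. The knockdown libraries lay far below the untreated ones, with 3.25-fold between the medians. The 7 days libraries lay above untreated replicate 5, the highest untreated one, by a small margin. At 1.5 h INHBA had already reached 129 to 158 CPM, about its level at 7 days.

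LRRC32, also called GARP, holds latent TGF-β at the cell surface. It stood at 1.70, 2.51, 2.33, 1.94 and 1.69 CPM in untreated cells, at 5.998, 5.21, 5.71, 5.79 and 5.88 CPM at 7 days and at 0.269, 0.338, 0.336, 0.187 and 0.253 CPM in the knockdown. The 3 groups were far apart, with 38 to 94 reads per untreated library and 5 to 11 reads per knockdown library. The untreated median was 7.21 times the knockdown median. The log2 fold change of the fit, -2.91 (SE 0.17), was larger than the -1.67 of the rule, which adds 0.5 CPM and so narrows differences of genes as low as this.

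Of the other 34 genes tested of the TGF-β and activin list, 3 were called higher and 9 lower at 7 days, and with the knockdown 0 were called higher, 7 lower (14.4% of all genes tested were called lower at 7 days and 5.18% higher with the knockdown). Genes lower with the knockdown by edgeR's test included the ligand TGFB2 at -0.96 (SE 0.09; adjusted p = 7.25e-08), the activin antagonist FST at -0.72 (adjusted p = 1.91e-07) and the feedback gene PMEPA1 at -1.09 (adjusted p = 4.97e-14). TGFB2 was also lower at 7 days, at -0.72 (adjusted p = 9.95e-07), unlike INHBA. FST and TGFBI of this list went the way of INHBA by the rule's measure and joined the members at a threshold of 0.5. By the test, 0 of the 34 were called both higher at 7 days and lower with the knockdown. With members included, the list's median log2 fold change was -0.06 at 7 days and -0.14 with the knockdown, against 0.01 and -0.01 over all genes tested.

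FN1 was in the matrix list and PI3 in the protease list. LRRC32 above and PLOD2, ESM1, A2M and C7 below were in no list and were placed by role after their values had been seen. FN1, encoding fibronectin, was by length the most abundant member, with a median of 264 CPM per kilobase (RPKM) in untreated cells. It stood at 4006, 5204, 4563, 2606 and 6353 CPM in untreated cells, at 8980.0, 8326, 8185, 7900.2 and 7642 CPM at 7 days and at 1725, 2016, 1883, 2461 and 1995 CPM in the knockdown. The untreated libraries spread widely, replicate 4 being close to the highest knockdown library, and the groups did not overlap. PLOD2, a lysyl hydroxylase that prepares collagen for cross-linking, changed less and with little spread, from 121 to 146 CPM in untreated cells to 222 to 248 CPM at 7 days and 88.6 to 98.6 CPM in the knockdown.

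ESM1, the secreted proteoglycan endocan, came next after KRT34 in its difference at 7 days. It stood at 7.82, 6.82, 7.40, 7.56 and 7.63 CPM in untreated cells and at 101, 89.4, 102, 104 and 114 CPM at 7 days. In the knockdown it stood at 4.18, 4.43, 4.36, 3.90 and 3.87 CPM, below every untreated library. At 1.5 h it stood at 8.39 to 10.9 CPM, just above the untreated range. The fold between medians was 13.5 upward at 7 days and 1.81 downward in the knockdown.

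PI3 encodes elafin, an inhibitor of elastase, and A2M a broad inhibitor of proteases. PI3 stood at 2.67 to 3.85 CPM in untreated cells, at 12.04 to 16.4 CPM at 7 days and at 1.16 to 1.87 CPM in the knockdown. A2M stood at 43.5 to 63.5, at 114 to 148 and at 20.0 to 32.0 CPM in the same groups. Neither gene's groups overlapped, and neither moved at 1.5 h, where PI3 stood at 2.73 to 3.32 CPM and A2M at 48.3 to 62.7 CPM. C7, a component of the complement attack complex, was scarce, with 0.532 to 0.879 CPM untreated, 2.69 to 4.21 CPM at 7 days and 0.120 to 0.506 CPM in the knockdown.

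Of 56 other genes tested of the extracellular matrix list, 7 were called higher and 16 lower at 7 days, while with the knockdown 2 were called higher and 20 lower. The collagen COL1A1 was called lower with the knockdown at -1.68 (adjusted p = 4.45e-13, edgeR) and had -0.43 at 7 days, under the fold threshold, and thrombospondin THBS1 had -2.20 and -0.44 in the same order (adjusted p = 6.12e-13 for the knockdown). FN1 was the gene of the list called higher at 7 days and lower with the knockdown. Of 50 other extracellular proteases and inhibitors, 26 were called higher and 4 lower at 7 days, and 9 higher and 8 lower with the knockdown. ADAM19 and ADAMTS5 were called higher at 7 days and lower with the knockdown like PI3, ADAM19 at 0.55 and -0.53 (adjusted p = 4.40e-07 and 2.56e-06, edgeR). SERPINE2, a serine protease inhibitor, was lower with the knockdown at -0.95 (adjusted p = 5.98e-11) and had 0.50 at 7 days, just short of the call. Of 37 other published SASP factors 21 were called higher and 2 lower at 7 days, and 9 higher and 4 lower with the knockdown. The growth factor NRG1 was the one among them called higher at 7 days, at 2.37 (adjusted p = 4.38e-12, edgeR), and lower with the knockdown, at -0.64 (adjusted p = 0.00236).

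**Figure D3:**
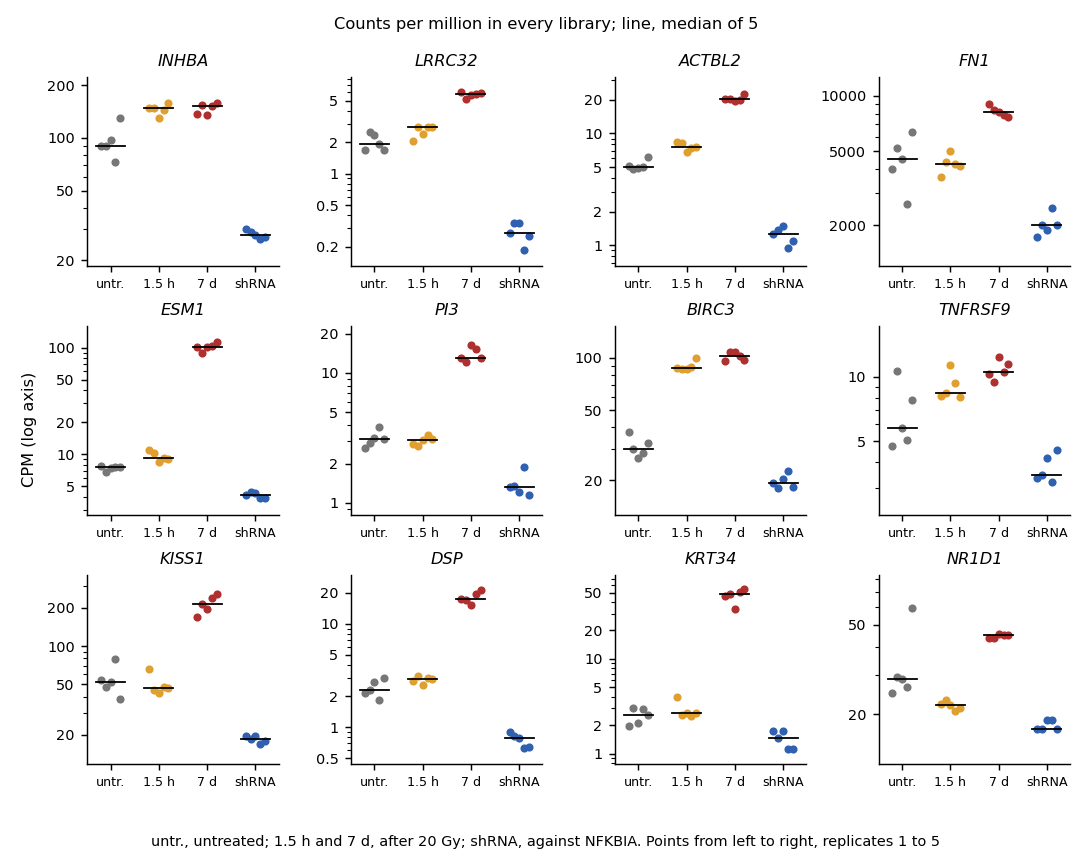
Levels in CPM on log axes for 12 members, 5 libraries in each group, with a line at the median. FN1, PI3 and KISS1 lie within the untreated range at 1.5 h and above it at 7 days, BIRC3 stands at 86.0 to 100.3 CPM at 1.5 h against 95.5 to 108 CPM at 7 days, and one untreated library of NR1D1 lies at 59.5 CPM.

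From the NF-κB and TNF receptor pathway the list held BIRC3 and TNFRSF9. BIRC3, or cIAP2, is a ubiquitin ligase at TNF receptors that protects from cell death and is a known NF-κB target. It stood at 37.9, 30.3, 26.8, 28.7 and 32.4 CPM in untreated cells, at 87.4, 86.2, 86.0, 88.2 and 100.3 CPM at 1.5 h, at 95.5, 108, 108, 102 and 96.5 CPM at 7 days and at 19.2, 18.1, 20.3, 22.7 and 18.3 CPM in the knockdown. Both irradiated groups lay far above and the knockdown below the untreated libraries. Its difference at 1.5 h, 1.51, was the largest of the members.

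TNFRSF9, the costimulatory receptor 4-1BB, was less clear. It stood at 4.75, 10.7, 5.77, 5.07 and 7.81 CPM in untreated cells, at 9.49 to 12.4 CPM at 7 days and at 3.22 to 4.55 CPM in the knockdown. Untreated replicate 2 reached into the 7 days range, whereas the knockdown libraries lay below all untreated ones.

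Of 29 other NF-κB subunits and feedback genes, 10 were called higher and 0 lower at 7 days, and with the knockdown 2 were called higher and 6 lower, NFKBIA itself among the latter. The subunit RELB was called higher at 7 days, at 0.66 (adjusted p = 4.86e-05, edgeR), and lower with the knockdown, at -0.51 (adjusted p = 0.00182). The feedback inhibitor TNFAIP3 had 0.55 and -0.52 (adjusted p = 3.02e-05 and 0.000203), and 1.41 at 1.5 h (adjusted p = 5.00e-10). Neither passed both thresholds of the rule. BIRC2, the paralog of BIRC3, had 0.49 at 7 days and 0.12 with the knockdown, and TRAF1, which binds both proteins, had 2.08 (adjusted p = 9.15e-14) and -0.31.

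DSP and KISS1 were in the epithelial list. KRT34 and KRTAP2-3, known from hair, were in no list and are placed beside them by role, after their values had been seen. KRT34, a hair keratin, had the largest difference at 7 days. It stood at 1.96, 3.01, 2.10, 2.94 and 2.57 CPM in untreated cells and at 45.8, 48.7, 34.0, 50.9 and 54.8 CPM at 7 days. In the knockdown it stood at 1.73, 1.45, 1.74, 1.12 and 1.12 CPM, close under the untreated libraries. The gene carries no symbol in the deposited table, and the name came from its Ensembl identifier.

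KRTAP2-3, a hair keratin-associated protein, lies on chromosome 17 as KRT34 does, 0.318 Mb away with 1 other tested gene between them. It stood at 1.87, 1.16, 1.66, 2.75 and 7.90 CPM in untreated cells, at 13.4 to 20.8 CPM at 7 days and at 0.492 to 0.671 CPM in the knockdown. Untreated replicate 5 held more than the other untreated libraries and still less than any at 7 days. Hair keratin-associated genes have near-identical copies, so reads may have been split between them.

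Desmoplakin, encoded by DSP, ties intermediate filaments to desmosomes. DSP stood at 1.84 to 3.02 CPM in untreated cells, at 17.3, 16.8, 15.3, 19.2 and 21.1 CPM at 7 days and at 0.637 to 0.897 CPM in the knockdown, without overlap. Its partner plakoglobin, JUP, was lower with the knockdown, at -1.36 (adjusted p = 1.98e-10, edgeR), and had -0.33 at 7 days. KISS1 encodes the precursor of kisspeptins. It stood at 54.5, 47.5, 52.4, 78.6 and 38.5 CPM in untreated cells, at 169.9, 215, 196, 238 and 259.7 CPM at 7 days and at 19.6, 18.6, 19.7, 17.0 and 17.8 CPM in the knockdown, and these groups did not overlap.

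Of the other 28 genes tested of the epithelial list, 6 were called higher and 10 lower at 7 days, and 1 was called higher and 8 lower with the knockdown. Summed over the list, epithelial genes took 2527 to 3436 CPM in untreated cells, 2591 to 2780 CPM at 7 days and 1676 to 1889 CPM in the knockdown. Of the 36 genes listed, 5 had a median under 0.1 CPM. The part of these sums in the values of DSP and KISS1 was not tested.

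ALPL, the alkaline phosphatase of bone, was the member among the osteoblast markers. It stood at 20.7, 18.1, 20.4, 25.7 and 45.2 CPM in untreated cells, at 44.6, 41.6, 55.7, 44.0 and 43.1 CPM at 7 days and at 5.89, 7.29, 6.99, 7.60 and 7.08 CPM in the knockdown. Untreated replicate 5 equalled the 7 days libraries, the other 4 lay well below them, and every untreated library lay above the knockdown. Of the other 10 osteoblast and mesenchymal markers tested, 2 were called higher and 1 lower at 7 days, and 0 higher and 1 lower with the knockdown. SPP1, encoding osteopontin, had 2.64 at 7 days (adjusted p = 3.55e-14, edgeR) and was not called with the knockdown. The bone regulator RUNX2 was called in neither.

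SLIT3 was in the axon guidance list. TENM4, NRXN3, MDGA1, CPLX2 and FRMPD4, also studied in neurons, were in no list and are placed beside it after their values had been seen. TENM4, a transmembrane teneurin, stood at 10.5, 17.2, 14.3, 6.66 and 14.9 CPM in untreated cells, at 31.9 to 33.8 CPM at 7 days and at 3.94 to 5.32 CPM in the knockdown. SLIT3, a ligand of ROBO receptors, stood at 4.86 to 7.54, at 12.8 to 14.4 and at 2.82 to 3.75 CPM in the same groups. Neither gene's groups overlapped. NRXN3 (a neurexin), MDGA1 (which binds neuroligins), CPLX2 (a complexin of vesicle fusion) and the scaffold FRMPD4 had differences of 0.67 to 1.69 at 7 days and of -0.62 to -0.80 in the knockdown.

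Of 43 other axon guidance genes tested, 14 were called higher and 12 lower at 7 days, and 4 higher and 8 lower with the knockdown. The receptor EPHB1 had the members' pattern in the fit, with 1.61 at 7 days (adjusted p = 5.58e-09, edgeR) and -0.95 with the knockdown (adjusted p = 0.000152). The SLIT receptor ROBO1 had -0.18 at 7 days and -0.52 with the knockdown (adjusted p = 0.00226).

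DUSP10 was in the ERK list, and the members described after it up to the long non-coding RNAs were in no list and are ordered by role. DUSP10, a phosphatase of the kinases JNK and p38, stood at 10.5 to 13.5 CPM in untreated cells, at 16.4 to 18.2 CPM at 1.5 h, at 20.7 to 22.6 CPM at 7 days and at 6.15 to 6.98 CPM in the knockdown, the 4 groups following each other without overlap. The receptor tyrosine kinase ROS1 stood at 27.6 to 45.3, 36.0 to 44.2, 52.0 to 66.6 and 14.5 to 18.2 CPM in the same order, so that 1.5 h fell within the untreated range. Of 33 other genes of the ERK output and feedback list, 6 were called higher and 2 lower at 7 days, and 2 higher and 3 lower with the knockdown, none of them in the way of DUSP10.

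RGS4, which switches off G proteins, stood at 1.38 to 2.26 CPM in untreated cells and at 6.33 to 7.86 CPM at 7 days, and its knockdown libraries, at 0.542 to 1.65 CPM, overlapped the untreated ones. DGKI, a diacylglycerol kinase, stood at 1.87 to 3.11, 14.1 to 18.2 and 1.31 to 1.99 CPM in untreated cells, at 7 days and in the knockdown, again with an overlap of the last with the first. The other 3 members whose knockdown libraries overlapped the untreated ones were ALDH1A2, FRMPD4 and AFF3. The phosphodiesterase PDE1C, the protein kinase A inhibitor PKIA and the kinase CDC42BPG had 0.78, 1.21 and 0.92 at 7 days and -0.77, -0.67 and -0.78 in the knockdown.

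ALDH2, which clears acetaldehyde in mitochondria, and ALDH1A2, which makes retinoic acid, are both aldehyde dehydrogenases. ALDH2 stood at 39.98 to 66.1 CPM in untreated cells, at 79.0 to 86.0 CPM at 7 days and at 25.9 to 33.0 CPM in the knockdown. ALDH1A2 stood at 0.452 to 1.02, at 1.82 to 2.83 and at 0.215 to 0.637 CPM. The former's groups did not overlap, and the latter's knockdown libraries reached into the untreated range.

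ACTBL2, an actin-like protein, was among the members with the most even movement in both directions. It stood at 5.10, 4.78, 4.93, 5.01 and 6.21 CPM in untreated cells, at 20.3, 20.4, 19.6, 19.9 and 22.8 CPM at 7 days and at 1.26, 1.38, 1.49, 0.937 and 1.08 CPM in the knockdown. The folds between medians were 4.06 upward and 3.99 downward, without overlap. ACTBL2 is similar to the cytoplasmic actins, and misplaced reads of these would be counted here. Of 33 tested SRF targets and actin genes, 7 were called higher and 14 lower at 7 days, and 0 higher and 8 lower with the knockdown.

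CFAP58, a protein of cilia and flagella, stood at 13.1 to 31.4 CPM in untreated cells, at 96.1 to 113 CPM at 7 days and at 7.30 to 9.26 CPM in the knockdown. SYTL3, which links vesicles to RAB27, stood at 26.0 to 35.6, at 96.3 to 106 and at 15.3 to 18.1 CPM. In both genes the 3 groups lay apart. NLRP10, a NOD-like protein, stood at 1.20 to 3.12, at 9.89 to 12.3 and at 0.759 to 1.12 CPM.

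KIF17, a kinesin motor, stood at 5.22 to 6.43 CPM in untreated cells, at 9.56 to 12.5 CPM at 7 days and at 2.53 to 3.48 CPM in the knockdown. TMOD2, which caps the pointed ends of actin filaments, stood at 3.30 to 5.55, at 6.61 to 7.84 and at 1.76 to 2.60 CPM. Neither gene's groups overlapped. SERINC2 stood at 33.6, 34.9, 35.8, 35.3 and 65.6 CPM in untreated cells, at 69.5 to 81.2 CPM at 7 days and at 21.0 to 23.3 CPM in the knockdown, so that untreated replicate 5 lay just under the 7 days range. C6orf132 stood at 3.10, 4.31, 3.84, 3.17 and 8.12 CPM in untreated cells and at 6.15 to 7.11 CPM at 7 days, and here replicate 5 lay above it, while the knockdown libraries at 1.95 to 2.41 CPM lay below all untreated ones. EVA1C, XKR4, SPANXD, DPY19L2 and AFF3 completed the list, with differences of 0.61, 0.68, 1.45, 0.96 and 0.92 at 7 days and of -0.82, -0.70, -0.80, -0.80 and -0.60 in the knockdown. Of these, AFF3 was the gene whose knockdown libraries, at 9.29 to 12.5 CPM, reached into the untreated range of 11.6 to 21.8 CPM.

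FLJ22447 and LINC01164 were long non-coding RNAs, the other 46 being protein-coding in GENCODE 29. FLJ22447 stood at 82.4 to 112 CPM in untreated cells, at 188 to 208 CPM at 7 days and at 40.8 to 56.0 CPM in the knockdown. LINC01164 stood at 0.679 to 1.08 CPM, at 6.25 to 7.81 CPM and at 0.0308 to 0.239 CPM, the lowest of which was 1 read. Neither RNA's groups overlapped. The members lay on 17 chromosomes, and the closest pair was the hair keratin genes on chromosome 17.

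The members that overlap another gene of the table were 7, namely ALDH2, ALDH1A2, FLJ22447, TMOD2, NR1D1, XKR4 and NOCT. For TMOD2 (with LYSMD2), NR1D1 (with THRA) and NOCT (with ELF2) the overlapping gene lies on the other strand. ALDH1A2, with 14 to 36 reads per untreated library, overlaps 2 genes of the table, and AQP9 and LIPC lie on its other strand. The strand setting of the counting is not given in the sources used here, so reads of these overlapping genes may not be separated. The same holds for the near-identical copies of SPANXD and DPY19L2.

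At 1.5 h the members stood, by their median, where they stood in untreated cells. Their differences ran from -0.38 to 1.51 with a median of -0.01, 23 above 0 and 25 below. Of the 48, 5 were called higher, where 2.08% of genes tested were, INHBA, ACTBL2, NOCT and BIRC3 among them, and 1 was called lower, NR1D1, where 1.57% were. Without untreated replicate 5 that call was lost (NR1D1 at -0.34, against -0.65 with it), as it was with only the 2 groups compared, where 94 genes in all were called lower against 236. With the lane as a factor 4 members were called higher (11.9% of genes tested) and 9 lower (13.6%). In 9 members all libraries at 1.5 h lay above all untreated ones (8.66% of genes tested), and in 2 all lay below (3.79%). Between 1.5 h and 7 days 43 members were called higher, where 16.8% of genes tested were, and 0 were called lower, where 12.6% were. In 44 members all 7 days libraries lay above those at 1.5 h, against 33.7%. Within lane 4, which held 2 libraries of each time, 43 members were called higher, where 16.2% of genes tested were. The rule used these libraries too. The 5 not called between the times were INHBA, DUSP10, NOCT, TNFRSF9 and BIRC3.

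NOCT and NR1D1 both belong to the circadian clock's output or loop and went apart at 1.5 h. NOCT, encoding nocturnin, stood at 9.99, 12.1, 12.03, 10.1 and 12.1 CPM in untreated cells and at 18.8, 17.0, 16.6, 16.5 and 17.3 CPM at 1.5 h. It was at 17.8 to 21.4 CPM at 7 days and at 6.93 to 8.46 CPM in the knockdown. Both irradiated groups lay above the untreated range. NR1D1, the repressor REV-ERBα, stood at 24.8, 29.4, 28.7, 26.4 and 59.5 CPM in untreated cells, at 20.7 to 23.2 CPM at 1.5 h, at 43.6 to 45.4 CPM at 7 days and at 17.3 to 18.9 CPM in the knockdown. Without the raised replicate 5 its groups would lie in the order knockdown, 1.5 h, untreated, 7 days with no overlap.

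**Figure D4:**
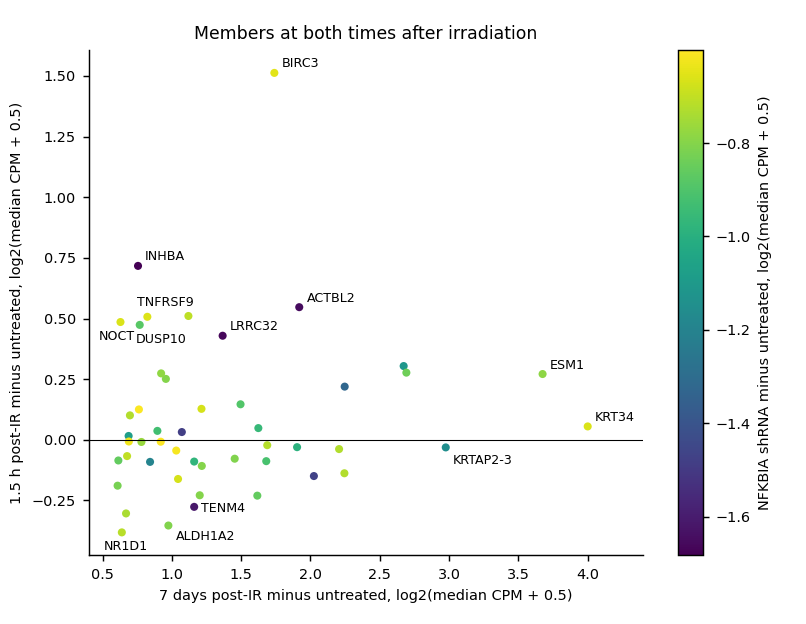
Each point is a member. The horizontal axis gives its difference from untreated cells at 7 days and the vertical axis that at 1.5 h, in log2(median CPM + 0.5), and colour gives the difference in the knockdown. Most points lie near 0 on the vertical axis whatever their value at 7 days, and BIRC3 at 1.51 and INHBA at 0.72 lie highest.

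Gene lists without a member are given by their counts. Of 34 tested p53 targets 32 were called higher at 7 days and 22 at 1.5 h, and with the knockdown 3 were higher and 1 lower, the latter being SERPINB5, which was higher at 7 days. Of 33 interferon-stimulated genes 18 were higher and 1 lower at 7 days, and 10 higher and 0 lower with the knockdown. Of 36 proliferation genes 32 were lower at 7 days and 8 with the knockdown, and 0 were higher in either. Of 26 YAP and TAZ targets 5 were called higher and 6 lower at 7 days, and 1 higher and 6 lower with the knockdown. The hypoxia list (36 genes) had 6 higher and 0 lower at 7 days and 4 higher and 3 lower with the knockdown, the integrin list (36 genes) 9 and 9, then 3 and 6, and the EGF family (15 genes) 6 and 3, then 3 and 4. Of 6 blood and endothelial markers tested 2 were higher and 1 lower at 7 days, and 1 was lower with the knockdown.

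**Figure D5:**
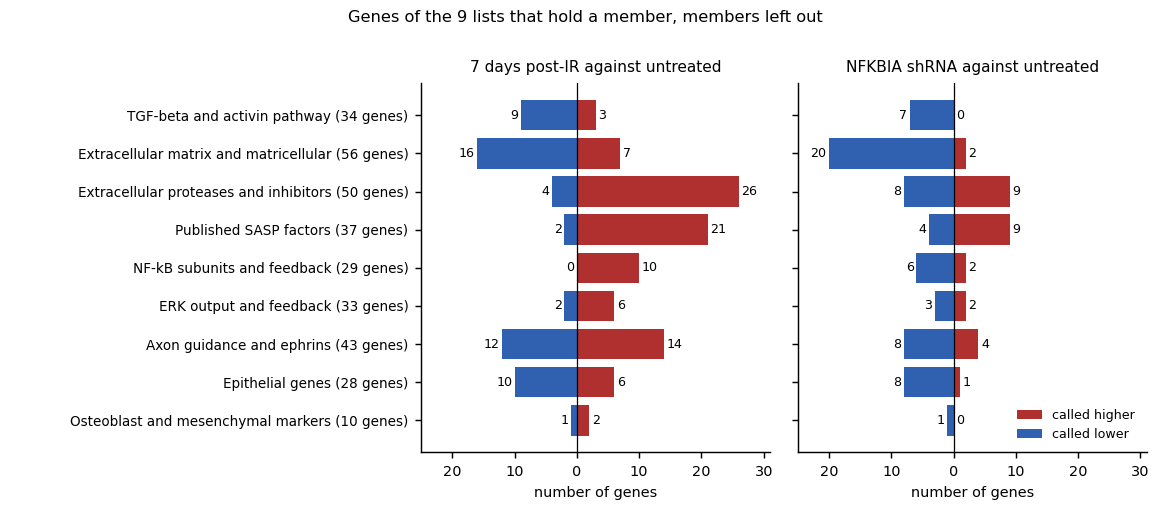
Bars give the number of genes called higher (red, right) and lower (blue, left) by edgeR in the 9 lists that hold a member, the members themselves being left out. The left panel compares 7 days with untreated and the right panel the knockdown with untreated. Matrix genes lean to the left in both panels, with 16 and 20 called lower, and proteases and SASP factors lean to the right at 7 days, with 26 and 21 called higher.

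Length was not used by the rule. The median annotated length was 4653 bases for members, 4550 bases for the 245 genes higher in both conditions and 4808 bases for the 1695 genes higher at 7 days and within the threshold in the knockdown. The untreated median level per length was 2.05 CPM per kilobase for members, 0.661 for those higher in both and 1.001 for those within the threshold. Because 0.5 CPM is added, a very scarce gene cannot reach the threshold downward, and the rule itself keeps such genes out of the members. Their median difference at 1.5 h was -0.01, against 0.05 and 0.06 in the other gene sets.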

How the data were processed

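RNA from 20 libraries of U2-OS cells, 5 for each of 4 groups named in the labels, was sequenced on an Illumina HiSeq2000 from stranded mRNA libraries as single reads. The deposited file holds whole-number counts per gene, which the authors made. The submitters' processing notes name bcl2fastq, Trimmomatic, STAR 2.4.2a and hg19; the counting tool, annotation and strand setting are not given in the sources used here. The totals were 22535659 to 40390961 counts per library, and intervals of counting error are therefore narrow except for genes with few reads.

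From the counts, CPM on library totals gave the rule and all levels. CPM per kilobase used the gene lengths in the file. Tests used edgeR 4.0.16 (quasi-likelihood, TMM, all 4 groups in 1 fit) in R 4.3.3 on 14992 genes kept by filterByExpr with a minimum count of 10. A call needed a log2 fold change over 0.5 in size and a Benjamini-Hochberg adjusted p under 0.05. On simulated counts for 14992 genes, 198 of 200 changed genes were recovered and 2 others called. The rate of right and wrong calls in the sequenced libraries, with their lanes and unequal spreads, was not tested. DESeq2 1.42.0 and other settings were alternatives. Replicate pairs differed beyond sampling noise, with a chi-square per gene of 1.75 to 166 over 40 pairs, so none was counted as a copy of another. Untreated pairs gave 11.8 to 166 and knockdown pairs 1.82 to 8.56. Libraries from the same culture can differ in this way too, so the check cannot tell technical from biological replicates.

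Members, gene lists and tests were chosen with earlier results of these data known. Named were members in any list, those with the 15 largest differences at 7 days, the 15 lowest with the knockdown, the 15 highest untreated levels and the 10 largest at 1.5 h, the 3 genes on each side of a threshold, NFKBIA, and pathway genes beside a member; the remaining members were added to account for the list. Values of 1 member are not reported here, and it stays in the counts. The name of KRT34 came from a name table. Gene types and overlaps were from GENCODE 29, and sequences from RefSeq, GRCh38.p14. Sequences were matched by the Entrez identifier in the deposited file, or by symbol where that gave no entry. No coordinates of the authors' build were used.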

Additional observations from a re-analysis of the deposited data

Results flagged for a closer look

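In 192 groups of 5 libraries (48 members in 4 groups) the highest or lowest library was tested for its distance from the others, and 20 groups (10.4%) were flagged because 1 library stood far from the rest. Chance flags about 1 in 20 groups. Untreated replicate 5 gave 10 of the 20. It was high for ACTBL2 (6.21 CPM), ALPL (45.2 CPM), KRTAP2-3 (7.90 CPM), FLJ22447 (112 CPM), NR1D1 (59.5 CPM), SERINC2 (65.6 CPM), C6orf132 (8.12 CPM) and NRXN3 (5.90 CPM), and low for C7 (0.532 CPM) and DPY19L2 (7.68 CPM). This replicate had the fewest counts, 22535659, and was sequenced in lane 3, apart from the other untreated libraries; the part of depth and lane in these values was not tested.

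The libraries at 1.5 h gave 6 of the flags. Replicate 1 was high for KISS1 (66.0 CPM) and KRT34 (3.995 CPM), replicate 2 was low for C7 (0.717 CPM) and high for PLOD2 (161 CPM), replicate 4 was high for FRMPD4 (6.55 CPM) and replicate 5 for BIRC3 (100.3 CPM). At 7 days replicate 5 was high for ACTBL2 (22.8 CPM) and replicate 3 for ALPL (55.7 CPM). With the knockdown replicate 4 was high for PI3 (1.87 CPM) and replicate 3 for AFF3 (12.5 CPM).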

How the results depend on the processing

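The choice of members depended on the threshold and the measure. The rule gave 77 genes at a threshold of 0.5, 22 at 0.8 and 148, of which 43 were members, with edgeR's log2 fold change in place of the difference of medians. It gave 52 with TMM scaling (45 of them members), 45 with the mean, 65 and 38 with 0.25 and 1 CPM added, and 40 to 53 with 1 library left out, the lowest without untreated replicate 5; 34 members stayed in every such run and 14 were lost in at least 1. Without a fold threshold 9620 genes were called at 7 days, 6078 with the knockdown, 3191 at 1.5 h and 9131 between the times, against 4657, 1906, 548 and 4398. Lane as a factor gave 4088 genes with the knockdown and 3820 at 1.5 h, and Bonferroni correction 899 and 256. Genes called lower at 1.5 h were 236, and 94 with only the 2 groups compared, 167 without untreated replicate 5 and 157 without 1.5 h replicate 2. Members called at 1.5 h were 4 higher and 9 lower with lane as a factor, against 5 and 1, and the 1 lower, NR1D1, was lost without untreated replicate 5, with only the 2 groups compared and with Bonferroni correction. Members called higher at 1.5 h were 3 with Bonferroni correction and 9 without a fold threshold, against 5. Bonferroni correction also left 36 members called at 7 days, against 47, 34 with the knockdown, against 48, and 37 between the times, against 43. With lane as a factor the 7 days values of ALPL (-0.11), C6orf132 (-0.33), INHBA (-0.029) and NR1D1 (-0.47) changed sign; the cause was not tested. Leaving out 1 library gave 4608 to 4888 genes and 45 to 47 members at 7 days, 1798 to 2146 genes and 48 to 48 members with the knockdown, 460 to 689 genes and 4 to 6 members at 1.5 h, and 4354 to 4518 genes and 43 to 43 members between the times. With the replicate number as a block the members called were 47, 48, 5 and 43, as without it, and the genes called 4628, 1849, 496 and 4403. The replicates share only a number: of 30 same-numbered pairs 2 correlated above 0.1 (r from -0.25 to 0.12), and 2 libraries correlated best with their own number. Scaling by library size alone changed the knockdown's split from 777 higher and 1129 lower to 971 and 924.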
